A study of Mus musculus with 23 samples.

Results

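The 10 genes described here were chosen by name: the fibroblast growth factor (FGF) ligand genes Fgf4, Fgf8, Fgf15, Fgf17 and Fgf10, the receptor genes Fgfr1 to Fgfr4, and Fgfbp1, which encodes a secreted carrier that releases FGFs from heparan sulfate. The choice was made with earlier results of these data known. They are 10 of 53607 gene rows, and all 10 were among the 20372 rows that passed the filter on low counts. Most FGFs are secreted proteins that bind tyrosine kinase receptors together with heparan sulfate on the cell surface. The activated receptors signal through RAS and ERK, among other routes. In mouse embryonic stem cells Fgf4 is the best known autocrine ligand, and FGF signalling through ERK moves cells out of naive pluripotency. ERF is an ETS-family repressor that ERK phosphorylates and so keeps out of the nucleus.

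RNA was sequenced from 23 libraries of mouse embryonic stem cells in 8 groups. All groups shared the Raslox/lox background, in which H-Ras and N-Ras are labelled deleted (H-Ras-/-, N-Ras-/-) and a Ubiq-CreERT2 transgene gives a tamoxifen-dependent Cre recombinase. Libraries labelled WT and RASKO carried ERF labelled wild type, and libraries labelled ERFKO and RASERFKO carried ERF labelled knockout. RASKO and RASERFKO libraries came from cells given 4-hydroxytamoxifen (OHT) for 6 days and no other group received it. Effects of the drug and of the deletion therefore cannot be told apart. Each label was sequenced in 2iL, a naive medium with LIF and inhibitors of MEK and GSK3, and in FA, a medium with 12 ng/ml FGF2 and 20 ng/ml Activin A, after 48 h. There were 3 libraries in each group except WT in FA, which had 2. The number of clones behind each label is not given in the sources used here, and nothing states that libraries came from separate cultures, so p-values measure the spread between these libraries, which may be technical.

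Total counts ran from 16.2 to 29.9 M per library. Naive markers were summed over Zfp42, Esrrb, Klf4, Tfcp2l1, Nanog and Tbx3 and lay between 610 and 940 TPM (a level scaled for transcript length and library total) in the 2iL libraries. In FA the sum was 70.1 to 134 TPM under the WT, ERFKO and RASERFKO labels but 512 to 707 TPM in the RASKO libraries. Erf RNA was 96.1 to 129 CPM (counts scaled to library size, not to length) in ERFKO libraries in 2iL and 70.6 to 85.7 CPM in WT libraries, and in FA 50.7 to 64.8 and 56.5 to 69.8 CPM, so the RNA level did not show the knockout, and ERFKO and RASERFKO are used here as labels. Hras and Nras counts were also above 0 in every group, and Nras differed widely between libraries of 1 group in 2iL, from 7.74 to 43.6 CPM in ERFKO and from 5.32 to 52.3 CPM in RASERFKO libraries. Markers of mesoderm summed to at most 1.22 TPM in any library. The 6 primitive endoderm markers (Gata4, Gata6, Sox7, Sox17, Foxa2 and Pdgfra) summed in FA to 16 to 33.9 TPM in WT and 19.4 to 22.6 TPM in ERFKO libraries, but to 3.38 to 4.53 TPM in RASKO and 4.36 to 7.33 TPM in RASERFKO libraries. Chromosome 8, which holds Fgfr1, had a gene median 0.142 to 0.22 log2 units above the group mean in replicate 1 of the 4 groups labelled ERF wild type, so Fgfr1 is given with and without those 4 libraries.

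Fgf4 and Fgf15 lie next to each other on chromosome 7, and the other members are spread over chromosomes 5, 7, 8, 13, 14 and 19. GENCODE M21 on GRCm38 (mm10) places Fgf4 at chr7:144847367-144865243, Fgf15 at chr7:144896531-144900953, Fgf8 at chr19:45736798-45742915, Fgf17 at chr14:70636203-70642268 and Fgf10 at chr13:118669791-118792115. It places Fgfr1 at chr8:25513654-25575718, Fgfr3 at chr5:33721674-33737068, Fgfr4 at chr13:55152640-55168759 and Fgfbp1 at chr5:43978858-43981779, and RefSeq places Fgfr2 at chr7:130162451-130266808. RefSeq (GRCm38.p6) gave promoter sequences for 6 of the 10 members. ETS proteins such as ERF bind around a GGAA core. The 250 bases before the start in RefSeq's promoter table are therefore shown for 4 members. They differ in how they responded, and Fgf10 and Fgfr2 among them hold equal numbers of cores. The RefSeq starts of Fgf4 (144861386) and Fgf10 (118714699) lie inside the GENCODE spans given above, so these windows do too. Capitals mark GGAA or its reverse complement TTCC, and each sequence reads 5′ to 3′ on the gene's strand.
Fgf4 (chr7:144861136-144861385, plus strand): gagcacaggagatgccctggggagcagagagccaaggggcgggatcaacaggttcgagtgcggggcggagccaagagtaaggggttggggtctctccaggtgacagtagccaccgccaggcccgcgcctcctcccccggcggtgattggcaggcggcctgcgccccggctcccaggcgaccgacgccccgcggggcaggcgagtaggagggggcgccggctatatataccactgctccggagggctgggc
Fgf10 (chr13:118714449-118714698, plus strand): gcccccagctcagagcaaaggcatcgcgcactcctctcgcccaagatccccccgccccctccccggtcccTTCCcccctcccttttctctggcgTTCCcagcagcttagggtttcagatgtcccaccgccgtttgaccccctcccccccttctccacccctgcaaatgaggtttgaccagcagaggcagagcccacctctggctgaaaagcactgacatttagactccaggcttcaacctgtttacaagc
Fgfr2 (chr7:130266809-130267058, minus strand): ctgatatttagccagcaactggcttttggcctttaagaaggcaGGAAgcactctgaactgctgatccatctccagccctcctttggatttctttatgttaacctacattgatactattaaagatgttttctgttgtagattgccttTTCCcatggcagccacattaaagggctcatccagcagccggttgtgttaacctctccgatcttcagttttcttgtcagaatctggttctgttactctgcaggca
Fgfbp1 (chr5:43981800-43982049, minus strand): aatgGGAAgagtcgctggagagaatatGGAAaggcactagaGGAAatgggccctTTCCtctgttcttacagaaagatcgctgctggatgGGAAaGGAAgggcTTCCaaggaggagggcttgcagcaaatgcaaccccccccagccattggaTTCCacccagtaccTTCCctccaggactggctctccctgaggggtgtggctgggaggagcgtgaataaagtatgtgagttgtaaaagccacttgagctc

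The Fgf4 window held 0 matches to GGAA on either strand, although it was rich in G and C (71.2%). The Fgf10 and Fgfr2 windows held 2 matches each, and the Fgfbp1 window held 9. Among 32851 promoter windows of the same length 93.4% held at least 1 match, with a median of 3. The Fgfr4 window held 2 matches, and the windows before the pair of annotated Fgfr3 starts held 1 and 5. The longer sequence CCGGAAGT, which contains the same core, was absent from every member's window and was present in 2.88% of all windows. These counts describe the letters in each window only.

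Per transcript length, Fgf4 was the most abundant of 22 FGF family genes in naive cells and Fgfr1 the most abundant of the 4 receptor genes. The 22 include Fgf11 to Fgf14 and so are not all secreted ligands. Fgf4 held 89.5% ± 0.615 (SD, n = 3) of the TPM summed over the 22 in WT libraries in 2iL and 46.1% ± 1.57 (SD, n = 2) in FA. The rest of the FA sum was spread over Fgf5, an epiblast ligand outside the members (19.7% ± 3.30), Fgf8 (15.4% ± 0.172) and Fgf15 (7.65% ± 2.79). RASERFKO libraries in FA had a different make-up, with Fgf8 at 31.0% ± 2.86 (SD, n = 3), Fgf4 at 28.8% ± 3.91, and Fgf15 and Fgf5 each at 15.6%, with SDs of 1.02 and 0.534. In RASKO libraries in FA, Fgf4 held 70.8% ± 16.2 (SD, n = 3) and Fgf5 3.55% ± 3.29. The sum over the 22 itself was 69.1 ± 6.06 TPM in WT libraries in 2iL and 87.5 ± 2.55 TPM in FA. It reached 126 ± 21.8 TPM in RASKO and 133 ± 14.8 TPM in RASERFKO libraries in FA.

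Fgfr1 held 85.3 to 92.1% of the summed receptor TPM as a group mean in 2iL under every label, while Fgfr2 held 0.805 to 3.5%. In FA the Fgfr2 share was 13.9% ± 2.01 (SD, n = 2) in WT and 8.85% ± 1.43 (SD, n = 3) in ERFKO libraries. With RAS deleted it was 29.4% ± 10.5 in RASKO and 26.5% ± 1.12 in RASERFKO libraries. Fgfr4 had the smallest mean share of the 4 in FA under every label. It held 8.73% ± 2.84 in ERFKO libraries in 2iL and 0.333% ± 0.176 in RASKO libraries in FA. The receptor sum was 40.5 ± 8.96 TPM in WT libraries in 2iL and 119 ± 18.6 TPM in RASKO libraries in FA. In bulk RNA, fewer cells of a kind and less RNA per cell cannot be told apart.

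**Figure D1:**
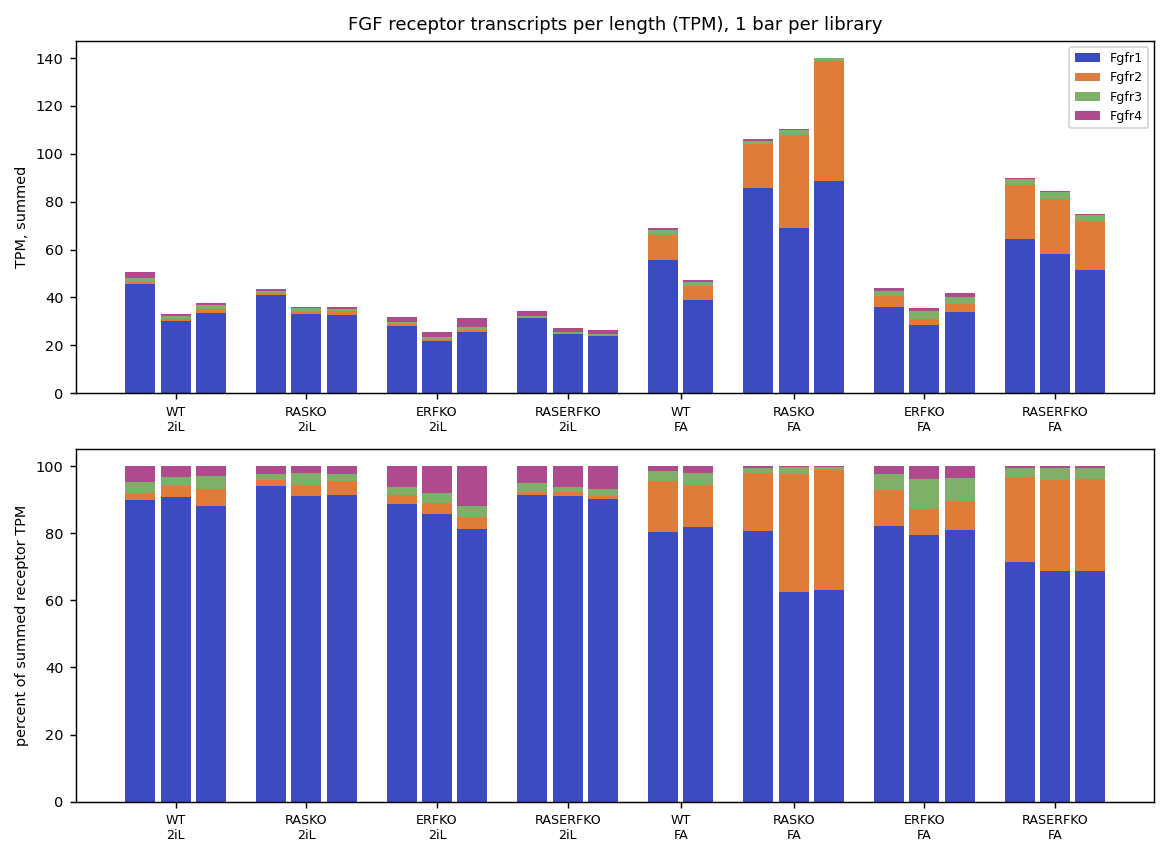
Summed TPM of the 4 FGF receptor genes (top) and the percent that each gene holds of that sum (bottom), with 1 bar per library, for the 4 labels in 2iL and FA. Fgfr1 is the largest part of every bar, and the Fgfr2 part is largest in RASKO and RASERFKO libraries in FA (group means of 29.4% and 26.5%).

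Moving WT cells from 2iL to FA raised Fgf8, Fgf15, Fgf17, Fgf10, Fgfbp1 and Fgfr2. These 6 of 10 members were called higher and 0 lower, where a call needs at least 2-fold and a Benjamini-Hochberg adjusted p under 0.05 over all tested genes in edgeR's quasi-likelihood test. Among all tested genes 13.2% were called higher and 10.8% lower. In RASKO libraries 5 members were called higher (9.96% of all genes) and 2 lower (6.59%). In ERFKO libraries 5 were called higher (12.3%) and 1 lower (7.46%), and in RASERFKO libraries 5 higher (14.5%) and 1 lower (10.4%). The share of members called higher was thus above the share of all genes under each label, while the counts called lower were 0 to 2 members. Because the members were chosen with earlier results of these data known, these shares and the medians below describe these 10 genes only. Fgf8, Fgf15, Fgfbp1 and Fgfr2 were the members called higher under all 4 labels. The median log2 fold change of the 10 members was 1.80, 1.95, 0.95 and 1.19 in that order, against 0.03, 0.01, 0.02 and 0.03 over all tested genes. Markers of other cell types also moved with the medium: in WT libraries sums of the neural markers Sox1, Pax6, Neurod1 and Olig2 were 2.55 to 3.23 TPM in 2iL and 11.9 to 15.2 TPM in FA, and primitive endoderm sums were 4.98 to 7.51 and 16 to 33.9 TPM. In RASERFKO libraries neural sums were 3.68 to 5.14 TPM in 2iL and 29.5 to 32.3 TPM in FA, and primitive endoderm sums overlapped (6.08 to 7.63 and 4.36 to 7.33 TPM). Neural sums also rose in RASKO (1.65 to 1.99 and 4.25 to 10.5 TPM) and ERFKO libraries (4.75 to 5.49 and 10.4 to 14 TPM). Primitive endoderm sums rose in ERFKO libraries (7.8 to 14.9 and 19.4 to 22.6 TPM) and overlapped in RASKO libraries. Sums of 6 trophoblast markers, named below, rose in WT, RASKO and RASERFKO libraries and overlapped in ERFKO libraries. In WT libraries they were 4.6 to 6.62 and 9.97 to 10.4 TPM. The part of these markers in the member changes was not tested.

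Fgf4, the autocrine ligand of naive cells, differed between the media in opposite directions with and without RAS. In WT libraries it was 224.8, 182.5 and 171.0 CPM in 2iL and 117.8 and 124.8 CPM in FA. In RASKO libraries it was 145.2, 137.1 and 143.4 CPM in 2iL and 267.2, 240.8 and 204.2 CPM in FA. The FA libraries thus lay below all 2iL libraries under the WT label and above all of them under the RASKO label. The log2 difference between FA and 2iL was -0.67 (SE 0.13, adjusted p = 0.000151) in WT and 0.74 (SE 0.11, adjusted p = 1.49e-05) in RASKO libraries, each under the 2-fold minimum. ERFKO libraries had 110.8, 121.3 and 112.3 CPM in 2iL and 90.5, 103.1 and 105.5 CPM in FA, and RASERFKO libraries had 89.0, 125.9 and 117.1 CPM in 2iL and 105.2, 103.5 and 113.8 CPM in FA. Neither of these last differences passed (-0.20, adjusted p = 0.15, and -0.04, adjusted p = 0.776).

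Fgf8, a ligand known from gastrulation and brain patterning, was close to absent in naive cells, at 0.135 to 0.529 CPM in all 12 libraries in 2iL. In FA it was 11.05 and 12.22 CPM in WT, 2.94, 6.20 and 14.16 CPM in RASKO, 3.75, 1.69 and 3.35 CPM in ERFKO, and 37.6, 37.5 and 27.3 CPM in RASERFKO libraries. Every FA library lay above every 2iL library, and the 3 RASERFKO libraries lay above all others. The log2 rise was 5.33 (SE 0.57) in WT, 4.74 (SE 0.57) in RASKO, 2.71 (SE 0.58) in ERFKO and 6.72 (SE 0.55) in RASERFKO libraries, with adjusted p of at most 0.00079.

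Fgf15, the mouse counterpart of human FGF19 and an endocrine-type ligand, had the same low start, at 0.304 to 1.16 CPM in 2iL. In FA it was 13.28 and 8.76 CPM in WT, 5.57, 17.67 and 41.12 CPM in RASKO, 7.75, 6.65 and 6.38 CPM in ERFKO, and 33.9, 37.6 and 28.8 CPM in RASERFKO libraries. The log2 rise was 3.75 (SE 0.64), 5.30 (SE 0.65), 3.40 (SE 0.67) and 5.66 (SE 0.65) in that order, with adjusted p of at most 0.000476. Fgf15 overlaps the antisense gene Gm26793, which shares 19.2% of its 75-base stretches, and the strand setting of the counting is not given in the sources used here. That gene itself had at most 14 counts in any library.

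**Figure D2:**
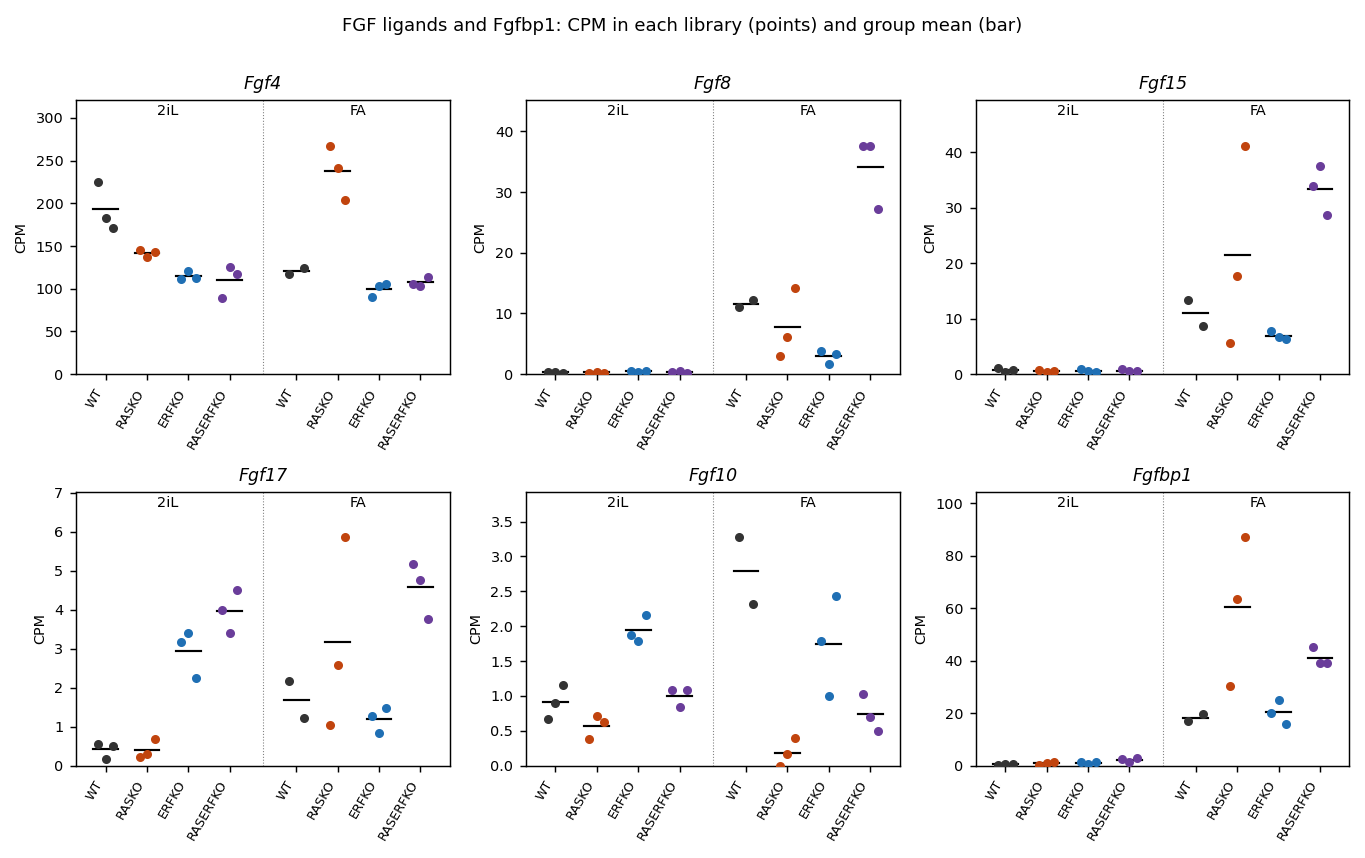
CPM of the 5 ligand genes and Fgfbp1 in each library (points, coloured by label) with the group mean (bar), in 2iL and FA, on linear axes from 0 with a scale of their own for each gene. Fgf8 and Fgf15 are near 0 in 2iL, Fgf4 is highest in RASKO libraries in FA, and the 3 RASKO libraries in FA are spread widely for Fgf8, Fgf15, Fgf17 and Fgfbp1.

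Fgf17, a close relative of Fgf8, showed another order. It was 0.56, 0.179 and 0.511 CPM in WT and 0.215, 0.304 and 0.678 CPM in RASKO libraries in 2iL, but 3.17, 3.41 and 2.26 CPM in ERFKO and 3.98, 3.42 and 4.52 CPM in RASERFKO libraries. The FA libraries had 2.16 and 1.23 CPM in WT, 1.05, 2.59 and 5.86 CPM in RASKO, 1.26, 0.825 and 1.48 CPM in ERFKO, and 5.18, 4.78 and 3.77 CPM in RASERFKO libraries. FA therefore raised Fgf17 in WT (log2 change 1.95, SE 0.57, adjusted p = 0.0075) and RASKO libraries (2.97, SE 0.53, adjusted p = 0.000116). It lowered Fgf17 in ERFKO libraries (-1.3, SE 0.45, adjusted p = 0.0209), and the difference in RASERFKO libraries did not pass (0.21, adjusted p = 0.68). The call in WT ended without WT replicate 1 in FA, which left 1 WT library there (1.45, adjusted p = 0.134). The call in ERFKO ended without replicate 1 or 2 in 2iL or replicate 2 in FA (-1.11 to -1.26, adjusted p = 0.0537 to 0.0807).

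Fgf10, a paracrine ligand best known from limb and lung budding, stayed low throughout. In 2iL it was 0.665, 0.893 and 1.16 CPM in WT, 0.376, 0.71 and 0.629 CPM in RASKO, 1.87, 1.79 and 2.16 CPM in ERFKO, and 1.08, 0.84 and 1.08 CPM in RASERFKO libraries. In FA it was 3.27 and 2.32 CPM in WT, 1.79, 1.00 and 2.43 CPM in ERFKO, and 1.03, 0.694 and 0.497 CPM in RASERFKO libraries. The RASKO libraries in FA had 0, 4 and 11 counts of Fgf10, and a count of 0 allows up to 3. FA raised Fgf10 in WT (log2 change 1.64, SE 0.43, adjusted p = 0.00254) and lowered it in RASKO libraries (-1.52, SE 0.57, adjusted p = 0.0331). The second call ended without RASKO replicate 2 or 3 in 2iL, or replicate 1 or 2 in FA (-1.0 to -1.45, adjusted p = 0.084 to 0.109), and under an offset for effective length (-0.73, adjusted p = 0.338). Without RASKO replicate 3 in FA the value was -2.70 (adjusted p = 0.00382).

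Fgfbp1, the carrier, had the largest log2 rise of any member in RASKO and ERFKO libraries. It was 0.315 to 2.97 CPM in 2iL. In FA it was 16.8 and 19.7 CPM in WT, 30.5, 63.6 and 87.0 CPM in RASKO, 20.2, 25.0 and 15.8 CPM in ERFKO, and 45.3, 39.3 and 38.96 CPM in RASERFKO libraries. Every FA library lay above every 2iL library, by a log2 change of 5.09 (SE 0.49) in WT, 6.07 (SE 0.43) in RASKO, 4.25 (SE 0.42) in ERFKO and 4.18 (SE 0.38) in RASERFKO libraries, with adjusted p of at most 2.77e-07.

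Among the receptors Fgfr2, whose splice forms distinguish ligands of epithelial and mesenchymal origin, changed most. In 2iL it was 1.89, 2.74 and 4.04 CPM in WT, 1.67, 2.99 and 2.23 CPM in RASKO, 1.25, 2.44 and 2.79 CPM in ERFKO, and 0.512, 0.896 and 0.607 CPM in RASERFKO libraries. In FA it was 24.5 and 18.9 CPM in WT, 50.3, 80.9 and 107.2 CPM in RASKO, 7.99, 8.86 and 9.53 CPM in ERFKO, and 50.2, 57.4 and 51.9 CPM in RASERFKO libraries. The FA libraries did not overlap: all 6 with RAS deleted had at least 50.2 CPM and all 5 with RAS present at most 24.5 CPM. The log2 rise from 2iL was 2.93 (SE 0.31) in WT, 5.11 (SE 0.31) in RASKO, 2.04 (SE 0.33) in ERFKO and 6.29 (SE 0.38) in RASERFKO libraries, with adjusted p of at most 5.44e-05. Fgfr2 shares 2.19% of its 75-base stretches with Ctbp2 on the same strand, which had 2182 to 4799 counts per library.

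Fgfr1, the main receptor of pluripotent cells, was present at high levels in both media under every label. In 2iL it was 152.3, 104.9 and 108.6 CPM in WT, 141.1, 109.3 and 111.9 CPM in RASKO, 93.6, 85.5 and 91.1 CPM in ERFKO, and 100.2, 96.8 and 97.1 CPM in RASERFKO libraries. The FA libraries had 165.0 and 142.1 CPM in WT, 272.3, 203.7 and 219.3 CPM in RASKO, 127.2, 116.8 and 115.8 CPM in ERFKO, and 180.5, 179.5 and 159.2 CPM in RASERFKO libraries. The log2 difference between FA and 2iL was 0.33 (SE 0.14, adjusted p = 0.0527) in WT, 0.94 (SE 0.13, adjusted p = 3.53e-06) in RASKO, 0.41 (SE 0.13, adjusted p = 0.0101) in ERFKO and 0.82 (SE 0.13, adjusted p = 1.06e-05) in RASERFKO libraries. Without the 4 libraries with raised chromosome 8 the values were 0.40, 0.93, 0.41 and 0.81 in the same order. None reached 2-fold, although the RASKO value did so without RASKO replicate 1 in 2iL (1.07) or replicate 2 in FA (1.03), and under an offset for effective length (1.05, adjusted p = 2.68e-05).

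Fgfr4, a receptor used by endocrine FGFs with the co-receptor Klb, went the other way. In 2iL it was 6.62, 3.27 and 3.07 CPM in WT, 3.71, 2.38 and 2.81 CPM in RASKO, 6.73, 6.88 and 8.94 CPM in ERFKO, and 5.80, 5.88 and 4.92 CPM in RASERFKO libraries. The FA libraries had 2.73 and 3.08 CPM in WT, 1.32, 1.09 and 0.611 CPM in RASKO, 3.75, 5.26 and 4.11 CPM in ERFKO, and 1.58, 1.27 and 1.41 CPM in RASERFKO libraries. FA lowered Fgfr4 in RASKO (log2 change -1.57, SE 0.30, adjusted p = 0.000174) and RASERFKO libraries (-1.96, SE 0.28, adjusted p = 2.24e-06). The difference in WT libraries did not pass (-0.60, adjusted p = 0.0955), and that in ERFKO libraries was under the 2-fold minimum (-0.78, adjusted p = 0.0121).

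Fgfr3, a receptor better known from cartilage and brain, was 1.94 to 4.59 CPM in 2iL. The FA libraries had 4.71 and 5.64 CPM in WT, 3.99, 5.43 and 2.23 CPM in RASKO, 5.83, 8.38 and 7.13 CPM in ERFKO, and 4.83, 6.61 and 8.12 CPM in RASERFKO libraries. It rose in ERFKO (log2 change 1.48, SE 0.27, adjusted p = 6.92e-05) and RASERFKO libraries (1.56, SE 0.27, adjusted p = 4e-05). The difference was 0.55 (adjusted p = 0.117) in WT and 0.81 (adjusted p = 0.0203) in RASKO libraries, the latter 1.10 and past the fold minimum without RASKO replicate 3 in FA. A gene on the other strand, G630022F23Rik, shares 9.96% of the 75-base stretches of Fgfr3 and had at most 6 counts in any library.

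**Figure D3:**
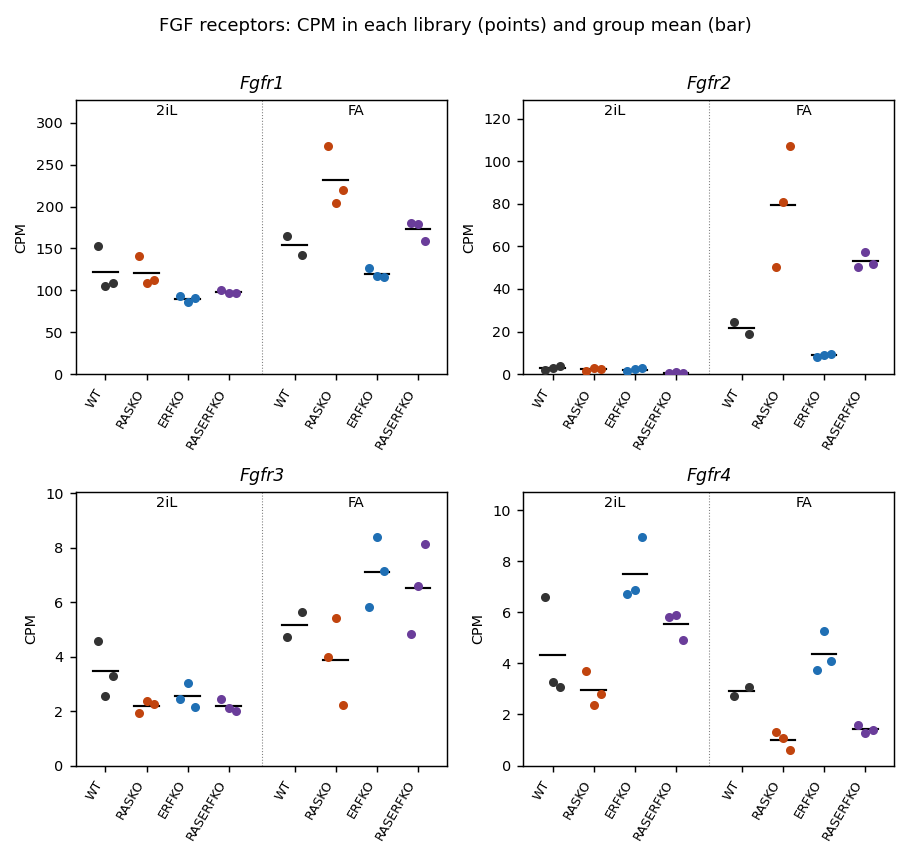
CPM of the 4 receptor genes in each library (points, coloured by label) with the group mean (bar), in 2iL and FA, on linear axes from 0 with a scale of their own for each gene. Fgfr2 is near 0 in 2iL and at least 50.2 CPM in all RASKO and RASERFKO libraries in FA, where Fgfr4 is lowest.

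**Figure D4:**
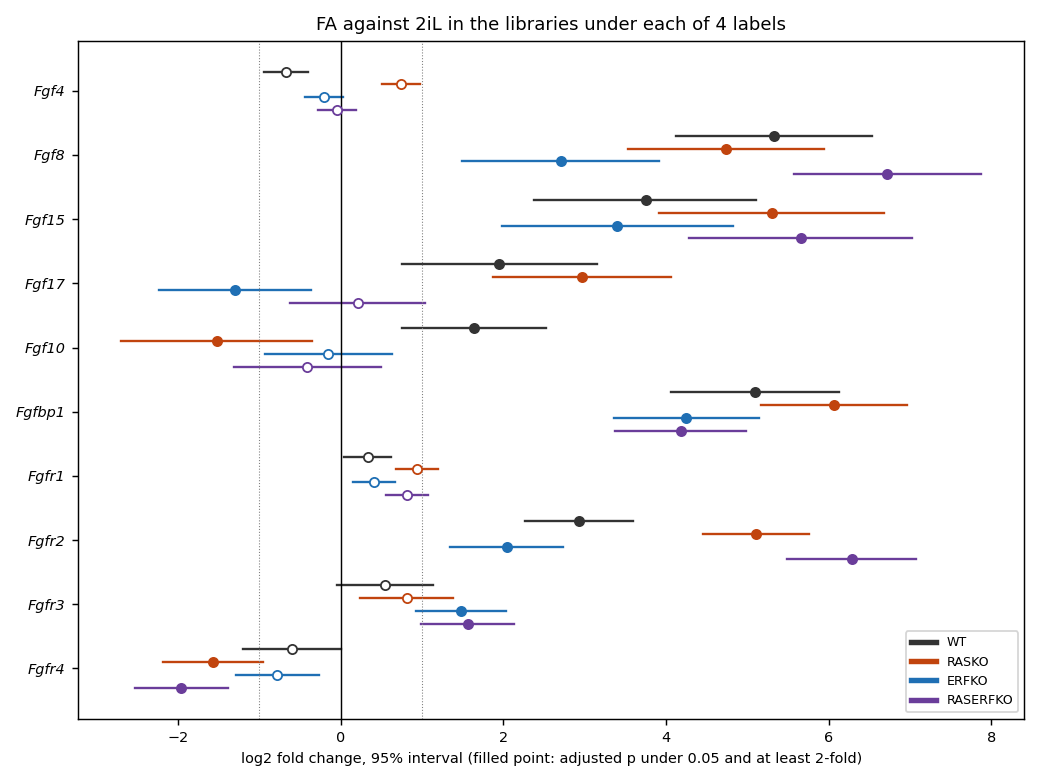
Log2 fold change of each member between FA and 2iL under the 4 labels, with the 95% interval of the fit, where filled points passed both criteria and dotted lines mark 2-fold. Fgf8, Fgf15, Fgfbp1 and Fgfr2 are filled to the right under every label, while Fgf4 is below 0 in WT (-0.67) and above 0 in RASKO libraries (0.74).

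Deleting RAS in 2iL, where MEK is inhibited, changed few genes and no member by the criteria used. With ERF labelled wild type 0 of 10 members were called by edgeR and 0 by DESeq2, where edgeR called 0.692% of all tested genes higher and 0.506% lower. An unadjusted p under 0.05 was reached by 3 members. The share of all genes at that unadjusted p is not given here for either ERF label. Fgf4 differed by -0.44 log2 units (SE 0.11, adjusted p = 0.0238), under the fold minimum. With ERF labelled knockout 0 members were called by edgeR (0.0687% of all genes higher and 0.142% lower), 2 had an unadjusted p under 0.05, and 1 was called by DESeq2 and when only the compared groups were fitted. Fgfr2 was lower in all 3 RASERFKO than in all 3 ERFKO libraries (log2 difference -1.65, SE 0.52, adjusted p = 0.131). Same-numbered libraries varied together in this comparison, and with the replicate number as a block in a fit of the compared groups alone Fgfr2 was called (-1.65, adjusted p = 0.000153), as was Fgfbp1 (1.09, adjusted p = 0.00215). In the fit without the block Fgfbp1 had an adjusted p of 0.383.

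Deleting RAS in FA raised Fgfr2 and Fgfbp1 and lowered Fgf10 and Fgfr4 with ERF labelled wild type, 2 members up (8.93% of all genes) and 2 down (8.33%). With ERF labelled knockout 5 members rose (Fgf8, Fgf15, Fgf17, Fgfbp1 and Fgfr2) and 2 fell (Fgf10 and Fgfr4), where 2.81% of all genes rose and 4.06% fell. The comparisons use separate libraries, since the first sets RASKO against WT and the second RASERFKO against ERFKO. The median log2 fold change of the 10 members was 0.75 and 0.77, against 0 over all tested genes in both. Sums of the 6 trophoblast markers (Cdx2, Gata3, Elf5, Eomes, Hand1 and Tfap2a) were 9.97 to 10.4 TPM in WT and 10.3 to 13.8 TPM in RASKO libraries, and 3.27 to 5.09 TPM in ERFKO and 7.31 to 9.46 TPM in RASERFKO libraries. Single markers went both ways between WT and RASKO libraries, with Gata3 at 0.46 to 0.58 and 7.06 to 7.98 TPM, Hand1 at 3.81 to 4.1 and 0.178 to 0.661 TPM, and Eomes at 4.69 to 5.05 and 1.82 to 3.81 TPM. Their part in these changes was not tested.

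Fgfr2 and Fgfr4 changed in opposite directions with either ERF label. The log2 change of Fgfr2 was 1.87 (SE 0.28, adjusted p = 3.24e-05) with ERF labelled wild type and 2.59 (SE 0.26, adjusted p = 1.52e-06) with ERF labelled knockout. That of Fgfr4 was -1.54 (SE 0.32, adjusted p = 0.000451) and -1.61 (SE 0.27, adjusted p = 0.00017). Both receptors had libraries without overlap between the compared groups. The primitive endoderm sum was lower with RAS deleted in the same comparisons, with Gata6 at 5.36 to 10 TPM in WT and 0.437 to 0.701 TPM in RASKO libraries, and Sox7 at 2 to 2.44 TPM in ERFKO and 0.186 to 0.305 TPM in RASERFKO libraries. None of the 6 markers was at 0 in any of these libraries, and their part in the changes of Fgfr2, Fgfr4, Fgf10 and the other members was not tested. Fgfr1 was 0.59 (SE 0.14, adjusted p = 0.00177) and 0.53 (SE 0.12, adjusted p = 0.00354) log2 units higher with RAS deleted, under the fold minimum, and without the 4 libraries with raised chromosome 8 it was 0.59 and 0.52. Fgfr3 differed by -0.42 (adjusted p = 0.252) and -0.13 (adjusted p = 0.735).

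Fgf8 responded to RAS deletion differently between the ERF labels. In FA its libraries overlapped between RASKO and WT (log2 difference -0.57, SE 0.40, adjusted p = 0.273), while all RASERFKO libraries lay above all ERFKO libraries (3.53, SE 0.39, adjusted p = 5.48e-06). Neural marker sums were 10.4 to 14 TPM in these ERFKO and 29.5 to 32.3 TPM in these RASERFKO libraries, and sums of the epiblast-like markers Fgf5, Otx2, Pou3f1 and Dnmt3b were 88.7 to 118 and 150 to 163 TPM. Of the neural markers Sox1 (6.03 to 8.55 and 14.3 to 15.3 TPM) and Pax6 (2.19 to 2.4 and 14 to 16.1 TPM) were higher in the RASERFKO libraries, Neurod1 was lower (1.93 to 3.3 and 0.654 to 1.15 TPM), and Olig2 was at 0 in ERFKO and at most 0.0291 TPM in RASERFKO libraries. With ERF labelled wild type the neural sums differed in the other direction, at 11.9 to 15.2 TPM in WT and 4.25 to 10.5 TPM in RASKO libraries. The part of these markers in the change was not tested. Fgf15 and Fgf17 also rose with ERF labelled knockout, by 2.27 (SE 0.46, adjusted p = 0.00197) and 1.94 (SE 0.43, adjusted p = 0.00247). With ERF labelled wild type they differed by 0.96 (SE 0.51, adjusted p = 0.146) and 0.90 (SE 0.48, adjusted p = 0.142). Fgf4 was higher in all RASKO than in all WT libraries, at 0.97 (SE 0.13, adjusted p = 2.74e-06) just under the fold minimum, and differed by 0.11 (adjusted p = 0.514) between RASERFKO and ERFKO libraries.

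These values rested in part on single RASKO libraries in FA. Without RASKO replicate 1, Fgf15 (1.41, adjusted p = 0.00175) and Fgf17 (1.3, adjusted p = 0.00864) were called higher with ERF labelled wild type. Without RASKO replicate 3 those differences were 0.07 (adjusted p = 0.9) and 0.09 (adjusted p = 0.882), Fgf8 was called lower (-1.34, adjusted p = 0.000978) and Fgf4 higher (1.07, adjusted p = 7.26e-07), and Fgf4 was also called without WT replicate 2 (1.03, adjusted p = 0.000118), a fit in which 1 WT library is left in FA and the spread comes from the other groups. The library with the lowest Fgf8, Fgf15, Fgf17, Fgfbp1 and Fgfr2, replicate 1, also had the lowest epiblast-like sum (39.3 TPM) and the highest naive sum (707 TPM). Replicate 2 had sums of 78.1 and 608 TPM, and replicate 3, the highest for those members, had 124 and 512 TPM. Neural sums were 4.25, 7.46 and 10.5 TPM in replicates 1, 2 and 3. WT libraries in FA had epiblast-like sums of 176 and 172 TPM. Dnmt3b made up most of the WT sums (116 to 131 TPM, against 17.3 to 62.3 TPM in RASKO libraries), while Otx2 was higher in all RASKO libraries (20.1 to 45.1 TPM) than in WT libraries (12.9 to 16.3 TPM). The part of this spread in the member values was not tested.

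Fgf10 and Fgfbp1 completed the changes in FA. Fgf10 fell with ERF labelled wild type (log2 change -3.80, SE 0.50, adjusted p = 1.95e-06) and with ERF labelled knockout (-1.21, SE 0.40, adjusted p = 0.0283). The first value was -3.28 to -4.97 with 1 library left out and -2.99 to -4.98 under the other alternatives. Fgfbp1 rose by 1.73 (SE 0.34, adjusted p = 0.000589) and 1.02 (SE 0.29, adjusted p = 0.0166). With ERF labelled knockout the Fgf10 call ended without ERFKO replicate 1 or 3 or RASERFKO replicate 2 or 3 (-0.89 to -1.19, adjusted p = 0.066 to 0.144). The Fgfbp1 call there ended without RASERFKO replicate 1 (0.93, adjusted p = 0.0586) or ERFKO replicate 3 (0.86, adjusted p = 0.0631). With ERF labelled wild type the Fgfbp1 value had an adjusted p of 0.0566 when only the compared groups were fitted.

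**Figure D5:**
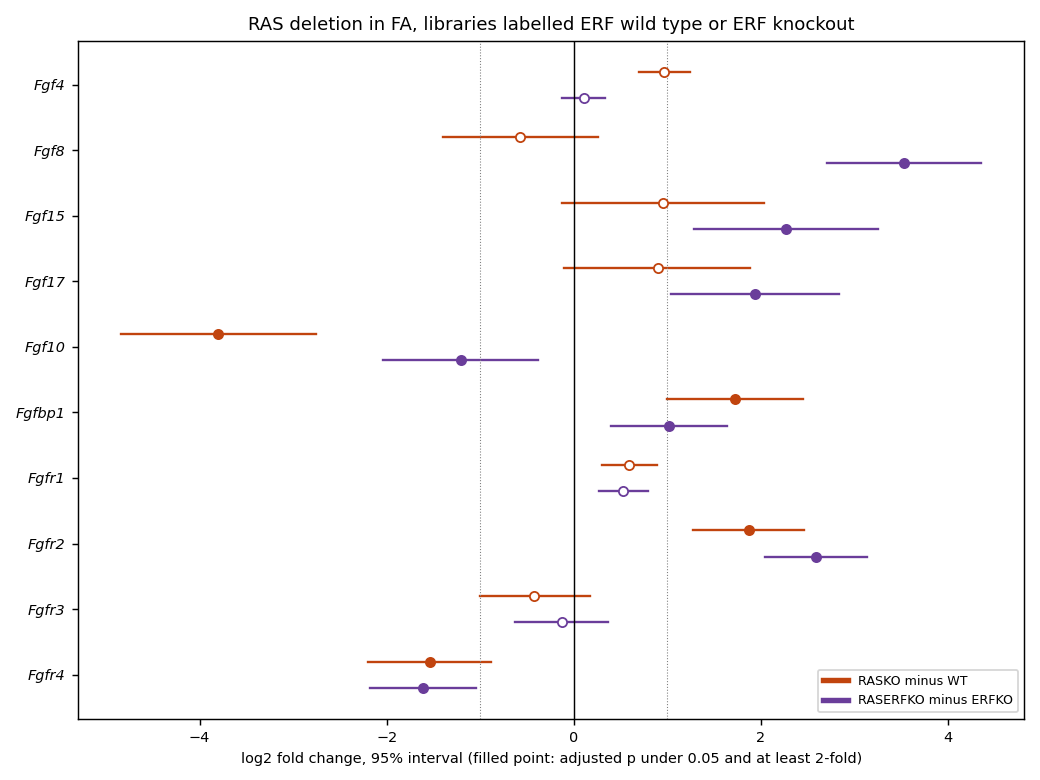
Log2 fold change of each member on RAS deletion in FA for libraries labelled ERF wild type (RASKO minus WT) and ERF knockout (RASERFKO minus ERFKO), with 95% intervals, where filled points passed both criteria and dotted lines mark 2-fold. The intervals of Fgf8 lie apart (-0.57 and 3.53), those of Fgf10 lie apart (-3.80 and -1.21), and those of Fgfr2 and Fgfr4 overlap.

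The effect of RAS deletion in FA differed between the ERF labels for 2 members by both criteria, Fgf8 and Fgf10 (13.7% of all genes called). The difference of log2 changes, ERF knockout minus ERF wild type, was 4.10 (SE 0.55, adjusted p = 2.06e-05) for Fgf8, 2.59 (SE 0.66, adjusted p = 0.00484) for Fgf10 and, under the fold minimum, -0.86 (SE 0.17, adjusted p = 0.000562) for Fgf4. For Fgfr2 it was 0.72 (adjusted p = 0.153), with a 95% interval from -0.04 to 1.49, and for Fgfr4 -0.07 (adjusted p = 0.929), with an interval from -0.98 to 0.83. Without RASKO replicate 3 in FA 5 members were called, with Fgf15 (2.2), Fgf17 (1.85) and Fgfr2 (1.0) added. Without RASKO replicate 1 Fgfbp1 was added (-1.03, adjusted p = 0.0176). The Fgf10 value lost its call under an offset for effective length (1.71, adjusted p = 0.0777). In 2iL the same edgeR test called 0 members (0.378% of all genes), and DESeq2 called 0. There 1 member had an unadjusted p under 0.05, a criterion for which the share of all genes is not given here.

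The libraries labelled ERF knockout had more Fgf17 than those labelled wild type in 2iL, with RAS present or deleted. With RAS present 2 members rose (5.2% of all genes) and 0 fell (4.52%): Fgf17 by 2.73 (SE 0.52, adjusted p = 0.000483) and Fgf10 by 1.11 (SE 0.41, adjusted p = 0.0452) on the log2 scale. With RAS deleted 1 rose (5.83% of all genes) and 1 fell (7.15%): Fgf17 rose by 3.27 (SE 0.53, adjusted p = 5.38e-05), and Fgfr2 fell by 1.76 (SE 0.51, adjusted p = 0.0112). The Fgf10 call ended without any 1 of the ERFKO libraries or WT replicate 1 or 2 (0.92 to 1.16, adjusted p = 0.0725 to 0.147), and under the offset for effective length (1.11, adjusted p = 0.0633). Fgf4 was lower in all ERFKO than in all WT libraries, by a log2 difference of -0.75 (SE 0.11, adjusted p = 3.39e-05), and Fgfr1 differed by -0.44 (SE 0.13, adjusted p = 0.0122), or by -0.23 without the 4 libraries with raised chromosome 8. Fgfr4 was 0.77 (SE 0.25, adjusted p = 0.0224) higher, and reached 1.26 (adjusted p = 0.00037) without WT replicate 1. With RAS deleted it was 0.90 (SE 0.26, adjusted p = 0.00873) higher, and 1.11 (adjusted p = 0.00615) without RASKO replicate 1. Fgfbp1 was 1.33 (adjusted p = 0.0744) higher with RAS deleted, and was called by DESeq2 (1.37, adjusted p = 0.0105). Neural sums in 2iL were 2.55 to 3.23 TPM in WT and 4.75 to 5.49 TPM in ERFKO libraries, and 1.65 to 1.99 TPM in RASKO and 3.68 to 5.14 TPM in RASERFKO libraries, with Olig2 at 0 in every WT and ERFKO library. Primitive endoderm sums were 4.98 to 7.51 and 7.8 to 14.9 TPM with RAS present, and 4.22 to 5.7 and 6.08 to 7.63 TPM with RAS deleted. Trophoblast markers differed in the other direction, with sums of 4.6 to 6.62 and 2.66 to 3.93 TPM with RAS present, and 5.75 to 6.23 and 2.91 to 3.5 TPM with RAS deleted. The part of these cell type markers in the member differences was not tested.

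In FA with RAS present, libraries labelled ERF knockout had less Fgf8 and Fgfr2. These 2 members fell (0.78% of all genes) and 0 rose (1.58%): Fgf8 by 1.98 (SE 0.42, adjusted p = 0.00698) and Fgfr2 by 1.31 (SE 0.28, adjusted p = 0.00765) on the log2 scale. Both calls ended without WT replicate 1, which left 1 WT library whose spread is assumed to be like the other groups' (Fgf8 -2.02, adjusted p = 0.057, and Fgfr2 -1.07, adjusted p = 0.142). Epiblast-like marker sums were 88.7 to 118 TPM in these ERFKO libraries and 172 to 176 TPM in the WT libraries, and trophoblast sums were 3.27 to 5.09 and 9.97 to 10.4 TPM, with Hand1 at 0.801 to 1.29 and 3.81 to 4.1 TPM and Eomes at 1.71 to 2.5 and 4.69 to 5.05 TPM. Their part in the differences was not tested.

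In FA with RAS deleted, libraries labelled ERF knockout had more Fgf8 and Fgf10 and less Fgf4, 2 members up (8.13% of all genes) and 1 down (8.48%). Fgf8 rose by 2.12 (SE 0.36, adjusted p = 0.000102), Fgf10 rose by 1.91 (SE 0.53, adjusted p = 0.0051), and Fgf4 fell by 1.14 (SE 0.11, adjusted p = 3.57e-08). Fgf4 thus stood at 107.5 CPM as a mean in RASERFKO and 237.4 CPM in RASKO libraries, without overlap. Without RASKO replicate 3, Fgf15 (1.52, adjusted p = 0.00194) and Fgf17 (1.32, adjusted p = 0.00461) were called too, making 5 members, and without RASKO replicate 2 Fgfr3 was (1.07, adjusted p = 0.0028). Without RASKO replicate 1, Fgf15 and Fgf17 differed by 0.18 (adjusted p = 0.66) and 0.11 (adjusted p = 0.823). Fgf10 was 3.08 (adjusted p = 0.000556) without RASKO replicate 3 and 1.39 (adjusted p = 0.0215) without replicate 1. The Fgf10 call ended when only the compared groups were fitted (1.90, adjusted p = 0.0562) and under the offset for effective length (1.14, adjusted p = 0.104). In a fit blocked on replicate, although numbers did not pair these libraries, neither Fgf8 (2.29, adjusted p = 0.0815) nor Fgf10 (1.94, adjusted p = 0.101) was called. Neural markers summed to 29.5 to 32.3 TPM in these RASERFKO libraries and to 4.25 to 10.5 TPM in the RASKO libraries, and naive sums were 116 to 134 and 512 to 707 TPM. Their part in these differences was not tested.

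The medium effect itself was compared between labels. Between RASKO and WT it differed for 3 members by both criteria (11.9% of all genes called): Fgf4 by 1.41 (SE 0.17, adjusted p = 1.86e-06), Fgfr2 by 2.17 (SE 0.46, adjusted p = 0.00187) and Fgf10 by -3.17 (SE 0.71, adjusted p = 0.00185). Fgfr1 differed by 0.61 (SE 0.19, adjusted p = 0.0208), and by 0.53 without the 4 libraries with raised chromosome 8. Without RASKO replicate 1 in FA 5 members were called, with Fgf15 (2.00, adjusted p = 0.0328) and Fgfr4 (-1.20, adjusted p = 0.0489) added. Without RASKO replicate 3 in FA, Fgf15 differed by 0.66 (adjusted p = 0.567), against 1.55 with all libraries, and without WT replicate 1 in 2iL Fgfr4 was added (-1.44, adjusted p = 0.00458). Between ERFKO and WT, 2 members differed (4.27% called): Fgf17 by -3.26 (SE 0.73, adjusted p = 0.00632) and Fgf10 by -1.79 (SE 0.57, adjusted p = 0.0493). The Fgf17 call ended without WT replicate 1 in FA, again with 1 WT library left there (-2.76, adjusted p = 0.0743), and the Fgf10 call ended without any 1 of 8 libraries (adjusted p = 0.0732 to 0.202). Fgf8 differed by -2.62 (adjusted p = 0.104) and was called by DESeq2 (-2.63, adjusted p = 0.00596) and when only the compared groups were fitted (-2.62, adjusted p = 0.00858).

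Other FGF family genes, co-receptors and pathway genes were counted from lists drawn up with earlier results of these data known. Of 17 other FGF family genes 9 were tested. On moving WT cells to FA 4 rose (13.2% of all genes) and 1 fell (10.8%). The median log2 change was 0.73 against 0.03 over all tested genes. Fgf5 was at 1 count or fewer in WT libraries in 2iL and at 17.2 ± 2.39 TPM (SD, n = 2) in FA, and it reached 4.94 ± 5.07 TPM in RASKO, 7.35 ± 2.00 TPM in ERFKO and 20.9 ± 2.83 TPM in RASERFKO libraries (SD, n = 3). On RAS deletion in FA with ERF labelled wild type 3 of these 9 genes fell (8.33% of all genes) and 0 rose (8.93%). Fgf5 was among those that fell (-1.85, SE 0.51, adjusted p = 0.00831). With ERF labelled knockout Fgf5 rose (1.29, SE 0.46, adjusted p = 0.0499). Fgf3, which lies beside Fgf4, fell in 2iL with the ERF knockout label (-1.15 with RAS present, -1.36 with RAS deleted, adjusted p of at most 0.00269).

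Of 17 co-receptors and surface binders, all tested, 5 rose and 4 fell in WT cells on moving to FA (13.2% and 10.8% of all genes), and 1 rose and 0 fell in RASKO cells (9.96% and 6.59%). The difference between these counts was not tested. In WT cells Sdc4, a syndecan that carries heparan sulfate, fell by 3.24 (SE 0.22, adjusted p = 4.82e-10), and Flrt3, a membrane protein that binds FGF receptors, rose by 3.21 (SE 0.30, adjusted p = 9.31e-09). On RAS deletion in FA with ERF labelled wild type 4 of the 17 rose (8.93% of all genes) and 5 fell (8.33%). With ERF labelled knockout 2 rose (2.81%) and 2 fell (4.06%). Klb, the co-receptor for Fgf15 and named after its values were seen, fell in these comparisons beside Fgfr4. It fell by 1.70 (SE 0.28, adjusted p = 3.03e-05) with ERF labelled wild type and by 2.51 (SE 0.27, adjusted p = 7.39e-07) with ERF labelled knockout. Of 12 tested enzymes that build or trim heparan sulfate, 2 rose in FA under every label, Sulf1, a sulfatase, and Hs6st2, a sulfotransferase, where 9.96 to 14.5% of all genes rose. The number that fell was 2 in WT, 0 in RASKO, 0 in ERFKO and 1 in RASERFKO libraries, where 6.59 to 10.8% of all genes fell. The log2 rise of Sulf1 was 5.98 (SE 0.48) in WT and 2.51 (SE 0.40) in RASKO libraries. Of 11 intracellular adaptors, Frs3 was the 1 gene called in any of the 12 comparisons of single factors, lower in FA in WT (-1.25, adjusted p = 2.2e-05) and RASERFKO libraries (-1.46, adjusted p = 3.78e-07), where 10.8% and 10.4% of all genes fell.

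Of 13 feedback and output genes of ERK, 7 rose (13.2% of all genes) and 1 fell (10.8%) in WT cells on moving to FA, with a median log2 change of 2.00 against 0.03 over all tested genes. On RAS deletion in FA 0 rose (8.93% of all genes) and 9 fell (8.33%) with ERF labelled wild type, with a median of -2.89 against 0 over all tested genes. With ERF labelled knockout 0 rose (2.81%) and 6 fell (4.06%), with a median of -0.86 against 0. Dusp4, a phosphatase that ERK induces and that acts back on it, fell by 3.63 (SE 0.37, adjusted p = 7.45e-07) and 3.41 (SE 0.36, adjusted p = 5.39e-06). Spry4, a feedback inhibitor of receptor tyrosine kinases, fell by 6.52 (SE 0.29, adjusted p = 9.99e-14) and 4.41 (SE 0.26, adjusted p = 5.5e-11). In the same libraries Fgfr2 and Fgfbp1 rose. In 2iL 0 of the 13 genes were called on RAS deletion with either ERF label.

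On chromosome 7, RefSeq places Fgf3, Fgf4, Fgf15 and Ccnd1 in that order, with Fgf15 beginning 35.1 kb and Ccnd1, a cell cycle gene, 68.5 kb beyond the start of Fgf4. With the ERF knockout label in 2iL, Fgf3 and Ccnd1 fell with RAS present and with RAS deleted, and Fgf4 was lower under the fold minimum. Ano1, within 100 kb of the GENCODE start of Fgf4, differed by -0.98 (adjusted p = 0.0461), under the fold minimum, with RAS present and fell by 2.50 (SE 0.39, adjusted p = 2.27e-05) with RAS deleted. Ccnd1 was 66.7 CPM in WT and 76.2 CPM in RASKO libraries in 2iL as group means, and 12.4 CPM in ERFKO and 11.8 CPM in RASERFKO libraries (log2 change with the ERF knockout label -2.43, adjusted p = 2.38e-05, with RAS present, and -2.68, adjusted p = 5.47e-06, with RAS deleted). Fgf15 had 8 to 19 counts in the ERFKO and RASERFKO libraries in 2iL and was not called there, and LTO1, also within 100 kb, was called in none of the 12 comparisons of single factors. Of the 4 tested genes within 100 kb of Fgf8, 3 rose with it under the ERF knockout label in FA with RAS deleted (8.13% of all genes), Kcnip2 by 1.85 (SE 0.31, adjusted p = 3.33e-05), Fbxw4 by 1.25 (SE 0.17, adjusted p = 4.01e-06) and Mgea5 by 1.02 (SE 0.06, adjusted p = 1.98e-11). The fourth, Npm3, was called in none of the 12 comparisons. On RAS deletion in FA with ERF labelled knockout, where Fgf8 rose by 3.53, 0 of the 4 were called (-0.07 to 0.52). Beside Fgf17, Dmtn fell in ERFKO libraries on moving to FA (-2.16, SE 0.17, adjusted p = 8.41e-10) but also in WT libraries (-1.06, SE 0.19, adjusted p = 5.82e-05), where Fgf17 rose. On RAS deletion in FA with ERF labelled knockout Dmtn rose (1.78, SE 0.17, adjusted p = 2.02e-07), as Fgf17 did. With ERF labelled wild type Dmtn also rose (2.23, SE 0.19, adjusted p = 3.57e-09), where Fgf17 was not called (0.90). Dmtn fell with the ERF knockout label in FA with RAS deleted (-1.19, adjusted p = 1.53e-06), where Fgf17 was not called (0.52). Hr fell in both comparisons of media (-1.40, adjusted p = 0.000147, and -1.45, adjusted p = 0.000305), while Reep4, Nudt18, Fam160b2 and Npm2 were called in none of the 12.

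Over the 8 group means of log2(CPM + 1), Fgf15 was close to 3 other members, with Pearson r of 0.97 to Fgfr2, 0.97 to Fgfbp1 and 0.96 to Fgf8. Fgfr1 and Fgfr4 ran in opposite directions (r = -0.96), and Fgf4 and Fgf17 were unlike most members, with r from -0.64 (to Fgf10) to 0.53 and from -0.25 to 0.49 to the others. These are descriptions over points that share libraries and media, with no test. Among tested genes with a highest group mean of at least 5 CPM, predicted genes and pseudogenes left out, the pattern most like that of Fgf8 was Pax6, a neural transcription factor (r = 0.987), followed by Nfat5 (0.986) and Slc2a1 (0.983). Those nearest to Fgfr2 were Hecw2 (0.993), Crabp2 (0.991) and Rbm45 (0.99), and those nearest to Fgf15 were Tuba1a (0.993), Cacna1g (0.991) and Med16 (0.989). Those nearest to Fgf4 were Ubxn7 (0.989), Ehmt2 (0.967) and Tmem192 (0.966), and those nearest to Fgfbp1 were Aff2 (0.991), Cgnl1 (0.989) and Zfp329 (0.987). For Fgf17 they were Slc52a2 (0.992), Zdhhc15 (0.962) and Rab8b (0.951), and for Fgf10 Dym (0.973), Zmiz2 (0.961) and Cenpn (0.96). For Fgfr1 they were Ubfd1 (0.983), Snx10 (0.983) and Plxnc1 (0.977), for Fgfr3 Trib1 (0.988), Ptk2 (0.967) and Dmrtb1 (0.966), and for Fgfr4 Usp8 (0.99), Pstk (0.99) and Appl2 (0.985).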

How the data were processed

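Libraries were rRNA-depleted and strand-specific and were read as 75 bp pairs, per the labels' protocols. The submitters' processing notes name bcl2fastq 2.20.0, fastp 0.20.0, Salmon and the build mm10. The Salmon version and the annotation are not given in the sources used here. The authors deposited estimated counts, TPM and effective lengths per gene. The deposited whole counts equal the rounded estimated counts in every cell (0 differ), and 0 sample columns were left unused. Gm26917 held 17.6 to 27.9% of the counts of a library. No 2 libraries of a group agreed within sampling noise, and none was merged.

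Counts were filtered with filterByExpr, scaled by TMM and fitted over all 23 libraries with edgeR 4.0.16 (quasi-likelihood test, R 4.3.3), with 1 coefficient per group. Genes with a Benjamini-Hochberg adjusted p under 0.05 over 20372 genes and at least 2-fold change were called. CPM values use the scaled library sizes. Comparisons that share a group share its libraries. The test was checked on simulated data.

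Same-numbered libraries varied together for the medium under RASKO, ERFKO and RASERFKO labels (0.198 to 0.419) and for RAS deletion in 2iL (0.372 to 0.585). There the correlation of deviations over 9018 genes was above 0.1 in every pair. The other comparisons did not pass that limit. For RAS deletion in FA with ERF labelled wild type, with 2 shared numbers, the correlations were 0 and 0.235, so pairing is not settled. Alternatives were DESeq2 1.42.0 (scaling or test), no filter, no fold minimum, compared groups only, the replicate block, effective-length offsets, without rows over 10% of a library, and without each library.

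Members and lists were chosen with earlier results of these data known. All members are named, up to 4 called genes per list and comparison, the 3 genes most like each member, and annotated neighbours within 100 kb. Shared stretches were counted on GENCODE M21 transcripts. Proteins were not used here, and 1 further targeted gene is not reported here.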

Additional observations from a re-analysis of the deposited data

Results flagged for a closer look

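Of 40 values that compare a member's effect between groups, in 4 interactions, 9 had an adjusted p under 0.05 in edgeR's quasi-likelihood test. These differed between the groups by that test. The share of all genes at that adjusted p alone is not given here, so the count describes these values only. With the 2-fold minimum added, 0.378 to 13.7% of all genes were called in an interaction. The RAS effect in FA differed between the ERF labels for Fgf8 (log2 difference of changes 4.10, SE 0.55), Fgf10 (2.59, SE 0.66) and Fgf4 (-0.86, SE 0.17). The effect of moving from 2iL to FA differed between RASKO and WT labels for Fgf4 (1.41, SE 0.17), Fgfr2 (2.17, SE 0.46), Fgf10 (-3.17, SE 0.71) and Fgfr1 (0.61, SE 0.19). It differed between ERFKO and WT labels for Fgf17 (-3.26, SE 0.73) and Fgf10 (-1.79, SE 0.57). Fgf10 values rest on 0, 4 and 11 counts in the RASKO libraries in FA where those enter. With 1 library left out the Fgf10 value was 2.07 to 3.76 for RAS and ERF, and -2.65 to -4.34 between RASKO and WT labels. Groups of 2 or 3 libraries are too small for the check on single outlying libraries.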

How the results depend on the processing

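The number of members called was recomputed under each alternative. The share of all genes called is not given for the alternatives or with libraries left out, so these counts cannot be set against it. Without the 2-fold minimum it was 4 and 5 for the ERF label in 2iL with RAS deleted and present, 5 for the ERF label in FA with RAS deleted, and 1 for RAS deletion in 2iL with ERF labelled wild type. For RAS deletion in 2iL with ERF labelled knockout it was 1 by DESeq2, 1 when only the compared groups were fitted, 1 without the 4 libraries with raised chromosome 8 (an alternative chosen after seeing the data), 2 with the replicate block and 2 without the low-count filter. Without that filter the interaction of RAS and ERF gave 1 in 2iL and 4 in FA. With the offset for effective length it gave 1 in FA, and the ERF label in 2iL with RAS present and the interaction of medium and ERF gave 1 each. That last interaction also gave 1 without rows over 10% of a library and 1 without the 4 libraries. The replicate block gave 1 for the ERF label in FA with RAS deleted, where numbers did not pair the libraries, and it turned Fgf15 on RAS deletion in FA with ERF labelled wild type to -0.08 (adjusted p = 0.973). That comparison has 2 shared replicate numbers, with correlations of deviations of 0 and 0.235, so its pairing is not settled. The block gave 6 members there where 4 were called, adding Fgf4 (1.07) and Fgf8 (-1.41). It gave 3 where 2 were called for the ERF label in 2iL with RAS deleted and for the interaction of medium and ERF. Where numbers paired the libraries, the block changed no call other than Fgfr2 and Fgfbp1 in 2iL, though Fgf10 could not be fitted in RASKO libraries. The cause of these shifts was not tested.

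With single libraries left out in turn, counts were 5 to 6, 6 to 8, 5 to 6 and 6 to 6 members for the medium under the WT, RASKO, ERFKO and RASERFKO labels. RAS deletion gave 0 to 0 in 2iL with either ERF label, and 4 to 6 and 5 to 7 in FA with ERF labelled wild type and knockout. The ERF label gave 1 to 2 and 2 to 3 in 2iL, and 0 to 2 and 3 to 5 in FA, with RAS present and deleted. The interactions gave 0 to 0 (RAS and ERF in 2iL), 2 to 5 (RAS and ERF in FA), 3 to 5 (medium and RAS) and 0 to 2 (medium and ERF). Member values smaller than their standard error, 36 in all, were given no direction and were left out of the comparison between alternatives. Fgf8 and Fgf15 had few counts in 2iL, and no difference between labels was called for them there in the fit of all libraries.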
